A study of Mus musculus with 10 samples.

Results

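The 34 genes described here encode proteins of mitosis and DNA replication, and they were taken by name from the 32285 genes of the count table, in which all 34 were found. They were read in all 10 blood libraries of a mouse sleep-loss study, and 33 of the 34 averaged 10 counts or more per library; the checkpoint kinase gene Bub1 did not. Counts of genes below are over those that pass this minimum, 33 members and 13982 genes in all. The study set sleep deprivation, called SD, beside an earlier sleep restriction method, called SASD, to see how the blood transcriptome altered over time. All mice were of the strain C57/BL6J, and the cell type is labelled leukocyte, and RNA was extracted from blood samples. The control group, Con, was sampled at 0 h, the SD groups at 6, 12, 24 and 48 h, and the SASD groups at 6, 12, 24, 48 and 120 h. Every group was a single library made from the pooled RNA of 3 mice, so no group had a replicate. The labels do not say how the mice were kept awake, how old they were or at what hour of the day blood was drawn.

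Cells copy their DNA in S phase and divide it in mitosis, and the genes for these steps are switched on in turn. Cyclin-dependent kinase 1 with cyclins A and B starts mitosis, and the anaphase-promoting complex ends it by marking cyclins and other proteins for destruction. Most circulating leukocytes do not divide, whereas precursors of neutrophils and of red blood cells divide in the marrow, so transcripts of these genes are usually scarce in blood. The MCM helicase subunits and the sliding clamp PCNA serve DNA copying and repair and can be present in cells that are not dividing.

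Promoters were read for 29 of the 34 genes, in RefSeq windows of 300 bases on GRCm38.p6 that run from 250 bases before the gene start to 50 after it, and a window was counted for a motif found on either strand. The cell cycle genes homology region, searched as TTTGAA, was in 15 of the 29 genes (51.7%) and in 20.2% of all 27025 genes with a window. It was in 14 of the 19 mitosis genes and in 1 of the 10 replication genes, Mcm2. The letters CCAAT, to which the factor NF-Y binds, were in 25 of 29 (86.2%) and in 41.1% of all genes. E2F letters, searched as TTTCCCGC, TTTGGCGC, TTTCGCGC and TTTGCCGC, were in 4 of the 10 replication genes and in 1 of the 19 mitosis genes, Cdk1, or 17.2% of the 29 against 2.6% of all genes. The GATA letters AGATAA and TGATAA were in 1 of 29 (3.45%) and in 21% of all genes. These are matches of letters, and binding was not measured.

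The windows of Ube2c and Nusap1 are shown because these 2 genes had a pattern over the libraries unlike that of the other members. Those of Ccnb2 and Plk1 stand for mitosis genes high at SD 48 h, and those of Mcm6 and Mcm3 for replication genes that varied little. Capitals mark every match to the motifs above, on either strand, and adjoining or overlapping matches run together.
Ube2c, chr2:164769679-164769978, plus strand: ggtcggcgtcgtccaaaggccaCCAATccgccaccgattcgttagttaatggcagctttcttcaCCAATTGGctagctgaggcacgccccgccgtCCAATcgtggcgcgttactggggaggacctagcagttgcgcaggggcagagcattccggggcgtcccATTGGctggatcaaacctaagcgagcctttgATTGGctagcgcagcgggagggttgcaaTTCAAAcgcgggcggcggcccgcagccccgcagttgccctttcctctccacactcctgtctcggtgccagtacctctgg
Nusap1, chr2:119618048-119618347, plus strand: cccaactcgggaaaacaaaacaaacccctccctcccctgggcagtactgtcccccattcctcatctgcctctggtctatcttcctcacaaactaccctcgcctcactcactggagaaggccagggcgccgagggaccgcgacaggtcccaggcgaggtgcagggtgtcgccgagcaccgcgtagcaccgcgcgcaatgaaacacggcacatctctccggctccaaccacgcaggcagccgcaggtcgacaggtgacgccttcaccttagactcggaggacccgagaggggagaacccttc
Ccnb2, chr9:70421505-70421804, minus strand: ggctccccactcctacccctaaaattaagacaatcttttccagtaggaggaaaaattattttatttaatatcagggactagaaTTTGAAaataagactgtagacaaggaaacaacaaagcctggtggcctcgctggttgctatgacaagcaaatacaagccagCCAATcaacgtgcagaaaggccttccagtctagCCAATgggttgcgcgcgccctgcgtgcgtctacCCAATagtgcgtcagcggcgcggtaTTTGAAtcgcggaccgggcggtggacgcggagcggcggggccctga
Plk1, chr7:122159185-122159484, plus strand: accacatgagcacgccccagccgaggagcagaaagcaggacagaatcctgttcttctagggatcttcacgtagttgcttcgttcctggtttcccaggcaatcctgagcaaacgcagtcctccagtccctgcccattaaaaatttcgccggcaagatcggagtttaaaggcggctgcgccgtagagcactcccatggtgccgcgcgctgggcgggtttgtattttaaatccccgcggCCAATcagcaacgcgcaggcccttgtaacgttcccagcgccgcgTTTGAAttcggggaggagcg
Mcm6, chr1:128359656-128359955, minus strand: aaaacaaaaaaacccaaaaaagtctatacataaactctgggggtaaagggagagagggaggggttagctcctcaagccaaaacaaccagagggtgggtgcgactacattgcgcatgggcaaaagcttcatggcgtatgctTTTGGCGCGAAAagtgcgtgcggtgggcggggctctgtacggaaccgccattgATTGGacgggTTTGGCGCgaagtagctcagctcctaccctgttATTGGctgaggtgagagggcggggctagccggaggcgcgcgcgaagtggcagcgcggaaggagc
Mcm3, chr1:20820263-20820562, minus strand: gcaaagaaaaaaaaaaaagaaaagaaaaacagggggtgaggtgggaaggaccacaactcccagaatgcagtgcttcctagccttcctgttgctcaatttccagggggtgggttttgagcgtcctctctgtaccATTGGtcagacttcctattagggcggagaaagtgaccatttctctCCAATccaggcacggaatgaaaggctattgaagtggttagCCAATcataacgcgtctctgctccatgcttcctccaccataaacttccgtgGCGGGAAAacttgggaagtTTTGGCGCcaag
The Ube2c window held the reverse complement of the homology region, TTCAAA, 29 bases before the start, beside 6 CCAAT matches. Ccnb2 had TTTGAA at 167 bases before the start and again just after it, and Plk1 had it after the start. Mcm6 and Mcm3 held E2F and CCAAT letters and no TTTGAA. The Nusap1 window held none of the letters searched, although Nusap1 and Ube2c had nearly the same levels over the libraries.

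Total counts ran from 7825120 to 27501393 per library. Levels are given as CPM, the usual depth-scaled counts, taken relative to each library's total after TMM scaling, and are listed for SD at 6, 12, 24 and 48 h and for SASD at 6, 12, 24, 48 and 120 h in that order. The haemoglobin genes took 0.727% of counts in Con, 0.316% at SD 48 h and 0.275% at SASD 48 h, but 3.57% to 6.96% in the other 7 libraries, which are called haemoglobin-rich; the 3 low ones are called haemoglobin-poor. The poor libraries also detected more of the 1134 olfactory receptor genes, which blood cells should hardly express, at equal depth: 56.2% in Con, 38.5% at SASD 48 h and 19.1% at SD 48 h, against 2.65% to 4.41% in the others. Per kilobase of exon, the olfactory receptor genes averaged 0.0557 CPM in Con, 0.0293 at SASD 48 h and 0.0132 at SD 48 h. At SD 48 h all 34 genes stood at least 10-fold over that level, compared with 25 in Con and 28 at SASD 48 h. Cenpf was at 0.948 times that level in Con and 2.08 times at SASD 48 h, and Bub1 at 1.55 and 1.92 times. Hmmr and Cdk1 were also under 5 times it in both libraries, so folds of these 4 genes over Con and SASD 48 h have denominators close to the olfactory level. Ccna2 and Ccnb1 were not far above this cut. Ccna2 was at 5.93 times the olfactory level in Con and 5.83 times at SASD 48 h, and Ccnb1 at 5.2 and 6.78 times. In a bulk sample, fewer cells of a type and less RNA per cell cannot be told apart.

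Per kilobase of exon, the mean level over the libraries ran from 0.0699 CPM for Cenpf to 28.8 CPM for Pcna. The replicative helicase genes Mcm2 to Mcm7 lay between 5.39 and 13.8 CPM per kilobase. Ube2c was at 12.4 and Nusap1 at 7.93 CPM per kilobase.

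**Figure D1:**
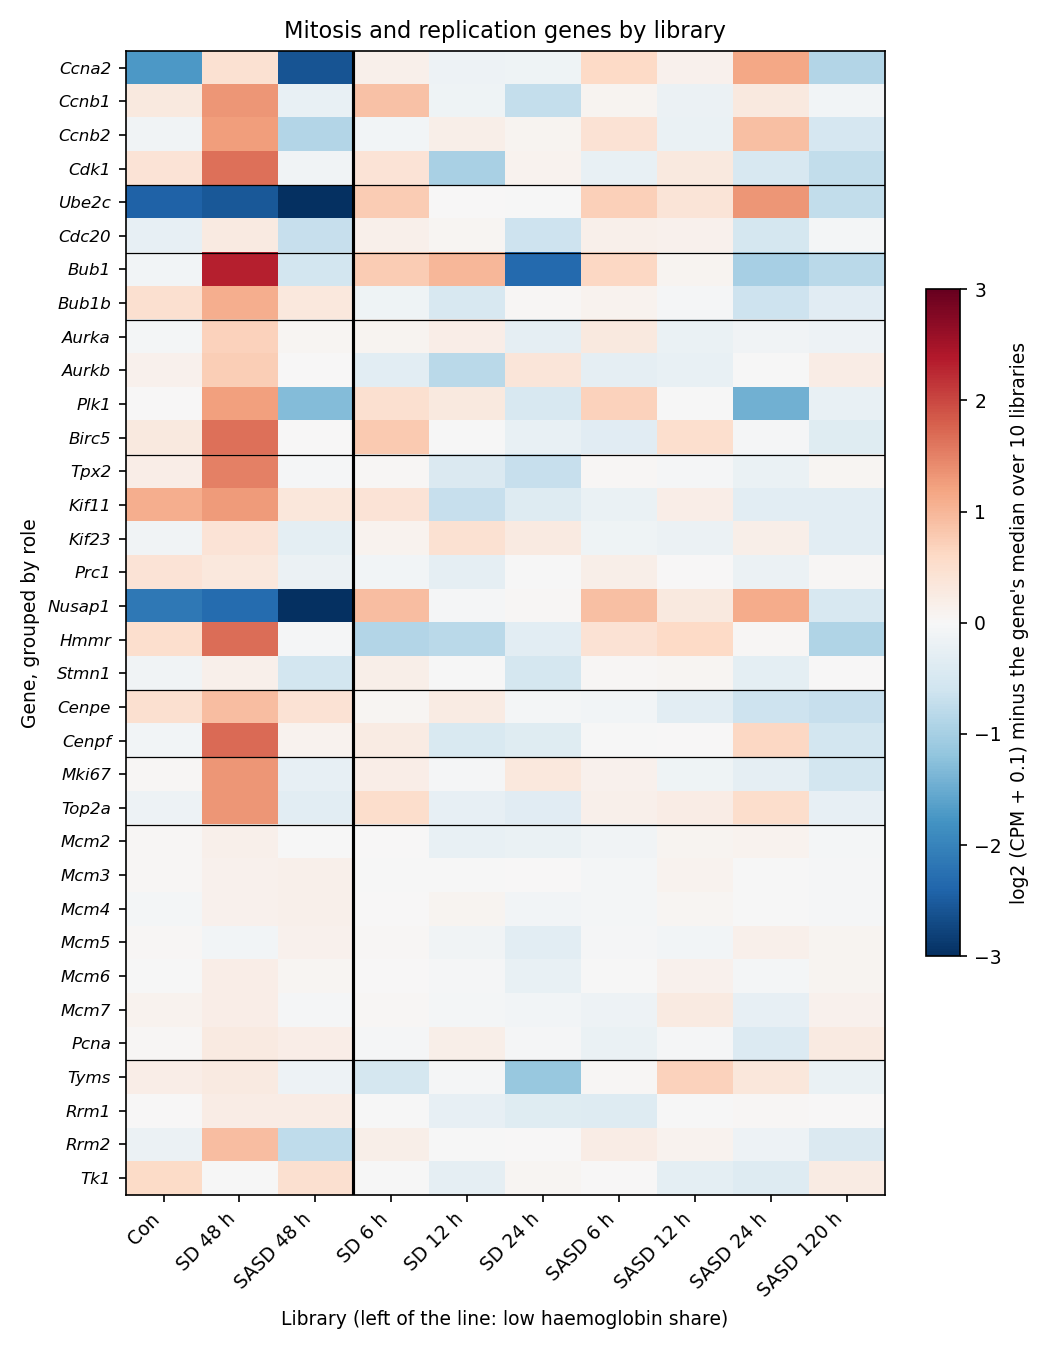
Levels of the 34 genes (rows, by role) in the 10 libraries (columns), as log2 of CPM plus 0.1 minus each gene's median over the libraries, with the colour scale ending at 3 on either side. Ube2c and Nusap1 are low in Con, SD 48 h and SASD 48 h, most mitosis genes are high at SD 48 h, and the MCM genes and Pcna vary little on this scale.

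The levels of Ube2c and Nusap1 followed the haemoglobin share over the libraries. Both were higher in each of the 7 haemoglobin-rich libraries than in each of the 3 poor ones (2 of 33), as were 9.1% of all genes, so the share of members is no higher than the background. Ube2c (ENSMUSG00000001403, chr2:164769898-164778822, plus strand) encodes the ubiquitin-conjugating enzyme that works with the anaphase-promoting complex. Its level was 5.83 CPM in Con, 54.1, 31.7, 31.5 and 5.36 CPM under SD and 52.2, 41.2, 79.9, 2.34 and 19 CPM under SASD. The SD 48 h and SASD 48 h libraries were its lowest, with Con just above, and SASD 24 h its highest. Nusap1 (ENSMUSG00000027306, chr2:119618298-119651244, plus strand) encodes a protein that bundles spindle microtubules. Its level was 6.93 CPM in Con, 59.1, 30.2, 31.7 and 6.17 CPM under SD and 57.7, 38, 66.7, 3.35 and 22 CPM under SASD. The same libraries were high and low. When the libraries were ordered by haemoglobin share, the levels of both genes were in that same order over 9 of the 10, with SD 24 h out of place.

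**Figure D2:**
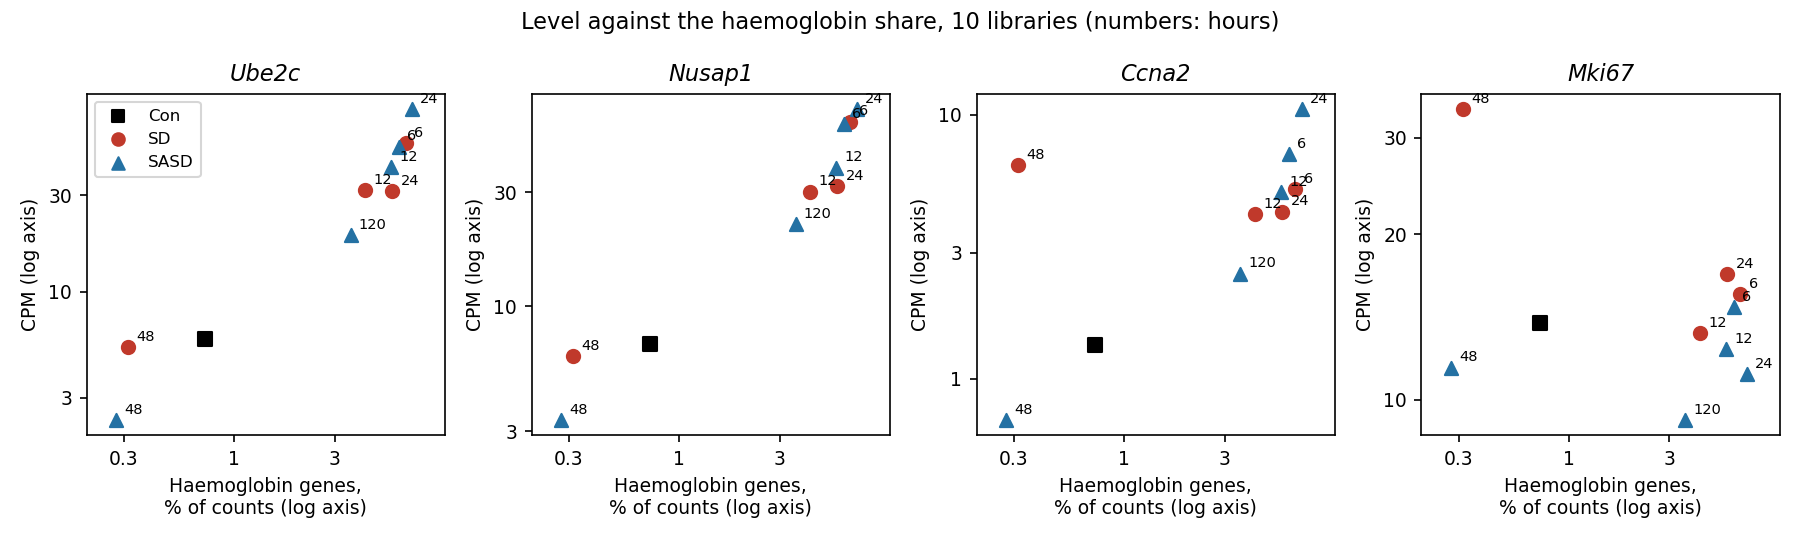
CPM of Ube2c, Nusap1, Ccna2 and Mki67 (log axis) against the haemoglobin share of counts in percent (log axis), 1 point per library, with the hours beside it. Ube2c and Nusap1 are under 7 CPM in the 3 libraries below 1% haemoglobin and at 19.0 CPM or more in the other 7.

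The erythroid markers, such as Alas2, the first enzyme of haem synthesis in red cells, and Slc4a1, the red cell anion exchanger, were apart in the same way. Their summed level was 605 to 1273 CPM in the poor libraries and 3975 to 18220 CPM in the rich ones. Of the 14 markers that pass the count minimum, 11 were higher in every rich library, as were 9.1% of all genes. Gata1, Tfrc and Ermap overlapped between the sets. Tfrc was at 48.6 CPM in Con, 43.2 at SD 48 h and 40.5 at SASD 48 h, against 39 to 50.9 CPM in the rich libraries. Gata1 was at 12.15 CPM at SASD 120 h, under its 14.9 CPM in Con. The genes nearest to Ube2c in the shape of their levels over the 10 libraries were Slc25a39, a mitochondrial carrier, and Nusap1, each with a root mean square difference of 0.20 on the log2 scale after centring. Among the next were Isg20, Ube2o, Tmcc2, Fam213a, Car2, Tent5c and Rgs9. For Nusap1 they were Ube2c, Slc25a39, Specc1, Gm4129, Car2, Epb41, Dhrs11, Ube2o, Isg20 and Tmcc2; Car2 is a carbonic anhydrase of red cells and Epb41 a protein of the red cell membrane skeleton. The part of erythroid RNA in the levels of Ube2c and Nusap1 was not tested.

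Cyclin A2, encoded by Ccna2 (ENSMUSG00000027715, chr3:36564865-36572150, minus strand), had part of this pattern. Its level was 1.35 CPM in Con, 5.23, 4.21, 4.3 and 6.45 CPM under SD and 7.08, 5.1, 10.5, 0.699 and 2.51 CPM under SASD. It was low in Con and SASD 48 h and high at SASD 24 h, as Ube2c was, but SASD 24 h and SASD 6 h alone stood above SD 48 h. With SD 48 h left out, Ccna2 too was higher in every haemoglobin-rich library than in Con and SASD 48 h, which makes 3 of 33 genes, against 14.0% of all genes. This description was added after the levels were seen.

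The opposite order, with each rich library under each poor one, was met by 2 of 33 genes, Bub1b and Cenpe, and by 8.15% of all genes. Bub1b, a kinase of the spindle checkpoint, was at 6.8 CPM in Con, 4.37, 3.41, 4.96 and 10.3 CPM under SD and 5.17, 4.67, 3.1, 5.98 and 3.8 CPM under SASD. Cenpe, a kinetochore motor, was at 3.45 CPM in Con, 2.57, 2.91, 2.34 and 4.75 CPM under SD and 2.3, 1.95, 1.55, 3.35 and 1.48 CPM under SASD. Both were highest at SD 48 h, which is a haemoglobin-poor library.

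At 48 h of SD, 12 of the 33 genes stood at least 2-fold over both Con and SASD 48 h (36.4%), as did 2.26% of all genes. All 3 libraries of this comparison are haemoglobin-poor. The members were chosen with earlier results of these data known, so their excess over all genes cannot serve as a test. Among the other mitosis genes described below, 1 of 55 (1.82%) met the same rule. None of the 33 stood at least 2-fold under both, against 2.33% of all genes. The 12 were all 4 genes of the group of cyclins and Cdk1, Plk1, Birc5, Tpx2, Hmmr, Cenpf, Mki67, Top2a and Rrm2. SD 48 h was the highest of the 10 libraries for 20 of the 33 genes, and for 13.3% of all genes, a count added after the levels were seen. With a single library in each group these are descriptions of libraries, and each interval below is an exact Clopper-Pearson interval at 95% that covers counting error alone, given in parentheses.

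The kinase that starts mitosis and its partners had low counts and stood highest, or nearly so, at SD 48 h. Ccna2 was 9.22-fold (5.65 to 15.8) over SASD 48 h and 4.78-fold (3.3 to 7.02) over Con. Cyclin B1, Ccnb1, was at 1.22 CPM in Con, 1.9, 0.902, 0.561 and 2.65 CPM under SD and 1.05, 0.868, 1.24, 0.839 and 0.928 CPM under SASD. It stood 3.16-fold (1.85 to 5.49) over SASD 48 h and 2.16-fold (1.35 to 3.46) over Con. For Ccnb1, Ccnb2 and Cdk1 no other library came up to SD 48 h. Cyclin B2, Ccnb2 (ENSMUSG00000032218, chr9:70407692-70421547, minus strand), was at 1.88 CPM in Con, 1.9, 2.31, 2.15 and 4.95 CPM under SD and 2.78, 1.74, 3.87, 1.05 and 1.39 CPM under SASD. Its ratio was 4.73 (3.05 to 7.49) over SASD 48 h and 2.63 (1.85 to 3.77) over Con. Its neighbour in height was SASD 24 h. Cdk1, the kinase itself, was at 0.941 CPM in Con, 0.95, 0.301, 0.748 and 2.38 CPM under SD and 0.574, 0.868, 0.464, 0.629 and 0.371 CPM under SASD. It stood 3.78-fold (2.08 to 7.08) over SASD 48 h and 2.53-fold (1.51 to 4.26) over Con, and the 9 other libraries were all under 1 CPM.

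Cdc20, which activates the anaphase-promoting complex, differed less between libraries than its partner Ube2c. Its level was 3.76 CPM in Con, 5.04, 4.71, 2.9 and 5.43 CPM under SD and 4.98, 4.88, 3.1, 2.73 and 4.27 CPM under SASD. SD 48 h was the highest library, but SD 6 h was close to it, and the ratio of SD 48 h to Con was 1.44 (1.07 to 1.93). For Ube2c the ratio of SD 48 h to SASD 48 h was 2.29 (1.63 to 3.22) and that to Con 0.919 (0.697 to 1.2), an interval that includes 1. Nusap1 had ratios of 1.84 (1.37 to 2.48) to SASD 48 h and 0.891 (0.69 to 1.14) to Con. Among the 3 haemoglobin-poor libraries, then, SASD 48 h was the low one for Ube2c and Nusap1, and SD 48 h did not stand out from Con.

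Of the spindle checkpoint genes, Bub1 had too few counts for the count of 33. It was at 0.376 CPM in Con, 0.76, 0.902, 0 and 2.44 CPM under SD and 0.67, 0.434, 0.155, 0.245 and 0.186 CPM under SASD, with 36 counts at SD 48 h, 7 at SASD 48 h and 0 at SD 24 h. The ratio of SD 48 h to SASD 48 h was 9.99 (4.38 to 26.6) for Bub1 and 1.73 (1.38 to 2.16) for Bub1b. Of both genes SD 48 h was the highest library.

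The mitotic kinases and the passenger complex, which corrects the hold of spindle fibres on chromosomes, all stood highest at SD 48 h. Plk1, Polo-like kinase 1, was at 1.88 CPM in Con, 2.66, 2.31, 1.31 and 4.48 CPM under SD and 3.06, 1.84, 0.619, 0.699 and 1.58 CPM under SASD. It stood 6.41-fold (3.84 to 11.2) over SASD 48 h and 2.38-fold (1.65 to 3.44) over Con. SASD 24 h and SASD 48 h were its lowest libraries. Birc5, or survivin, a subunit of the passenger complex, was at 1.38 CPM in Con, 2, 1.1, 0.935 and 3.73 CPM under SD and 0.861, 1.63, 1.08, 1.12 and 0.835 CPM under SASD. It was 3.34-fold (2.12 to 5.33) over SASD 48 h and 2.71-fold (1.79 to 4.12) over Con, and no other library came above 2 CPM. The aurora kinase genes differed less. Aurkb, the kinase of the passenger complex, was at 5.11 CPM in Con, 3.71, 2.61, 5.99 and 7.8 CPM under SD and 3.83, 4.01, 4.64, 4.68 and 5.47 CPM under SASD. Aurka, which acts at spindle poles, was at 2.38 CPM in Con, 2.66, 2.91, 2.06 and 4.07 CPM under SD and 3.06, 2.17, 2.32, 2.62 and 2.23 CPM under SASD. Their ratios of SD 48 h to SASD 48 h were 1.67 (1.29 to 2.15) and 1.55 (1.09 to 2.21), and both were under 2-fold over Con.

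The 7 spindle and midzone genes were mixed. Tpx2, which activates aurora A on spindle microtubules, was at 2.67 CPM in Con, 2.38, 1.7, 1.4 and 6.85 CPM under SD and 2.39, 2.28, 2.01, 2.27 and 2.41 CPM under SASD. It stood 3.02-fold (2.19 to 4.19) over SASD 48 h and 2.57-fold (1.91 to 3.47) over Con, and the other 9 libraries lay between 1.4 and 2.67 CPM. Hmmr, a spindle protein that also binds hyaluronan, was at 0.909 CPM in Con, 0.285, 0.301, 0.468 and 2.17 CPM under SD and 0.861, 0.976, 0.619, 0.594 and 0.278 CPM under SASD. Its ratios were 3.66 (1.97 to 7.02) to SASD 48 h and 2.39 (1.4 to 4.09) to Con, from few counts. Kif23, a motor of the central spindle, was at 21.6 CPM in Con, 25.2, 32.1, 28.1 and 31 CPM under SD and 21.3, 20.5, 26.5, 19.2 and 18.7 CPM under SASD. It was higher under SD than under SASD at each of the 4 shared times, though the intervals at 6 and 24 h included 1. Mki67, Cenpe and Pcna were also higher under SD at each of these times. The motor gene Kif11 and the midzone gene Prc1 were 1.92-fold (1.41 to 2.62) and 1.43-fold (1.05 to 1.93) over SASD 48 h at SD 48 h, but 1.14-fold (0.868 to 1.5) and 0.933-fold (0.706 to 1.22) over Con. Stmn1, which destabilises microtubules, had a ratio of 1.62 (1.32 to 1.98) to SASD 48 h and ran from 7.72 to 12.7 CPM.

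Both kinetochore genes were highest at SD 48 h. Cenpf was at 0.815 CPM in Con, 1.05, 0.601, 0.655 and 3.05 CPM under SD and 0.861, 0.868, 1.39, 0.943 and 0.557 CPM under SASD. It stood 3.24-fold (1.97 to 5.42) over SASD 48 h and 3.75-fold (2.26 to 6.32) over Con, and no other library reached 1.5 CPM. Cenpe was 1.42-fold (1.03 to 1.95) over SASD 48 h and 1.38-fold (1.01 to 1.88) over Con.

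Both chromosome structure genes were highest at SD 48 h. Mki67 (ENSMUSG00000031004, chr7:135689784-135716361, minus strand) encodes the Ki-67 protein that coats mitotic chromosomes and is used as a marker of dividing cells. Its level was 13.8 CPM in Con, 15.6, 13.2, 16.9 and 33.9 CPM under SD and 14.7, 12.4, 11.1, 11.4 and 9.19 CPM under SASD. SD 48 h was the highest, and the other 9 lay between 9.19 and 16.9 CPM with the rich and poor libraries mixed. The ratio was 2.96 (2.57 to 3.42) to SASD 48 h and 2.46 (2.16 to 2.8) to Con. Top2a (ENSMUSG00000020914, chr11:98992943-99024189, minus strand), the topoisomerase that untangles copied chromosomes, was at 8.84 CPM in Con, 14.3, 8.32, 7.86 and 24.9 CPM under SD and 11.1, 11.6, 14.2, 7.93 and 8.35 CPM under SASD. SD 48 h was again the highest, with a ratio of 3.14 (2.65 to 3.72) to SASD 48 h and 2.82 (2.41 to 3.3) to Con. The gene nearest to Mki67 in shape over the libraries was Rrm2, at a root mean square difference of 0.24. Rhoc and Sertad3, which are not members, were also at 0.24. Neil3, Lrrc75b, Ddr1, Glrx, Fkbpl, Asb7 and Adam19 came next and are not members either. Those nearest to Top2a were Cenpf at 0.24, Ccnb1 at 0.26 and She, not a member, at 0.27. After them came B4galnt4, Rrm2, Zfp365, Spc24, Rnf125, Gadl1 and Zfp551, of which Rrm2 is a member. The 5 members Mki67, Top2a, Rrm2, Cenpf and Ccnb1 met the 2-fold rule at SD 48 h.

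**Figure D3:**
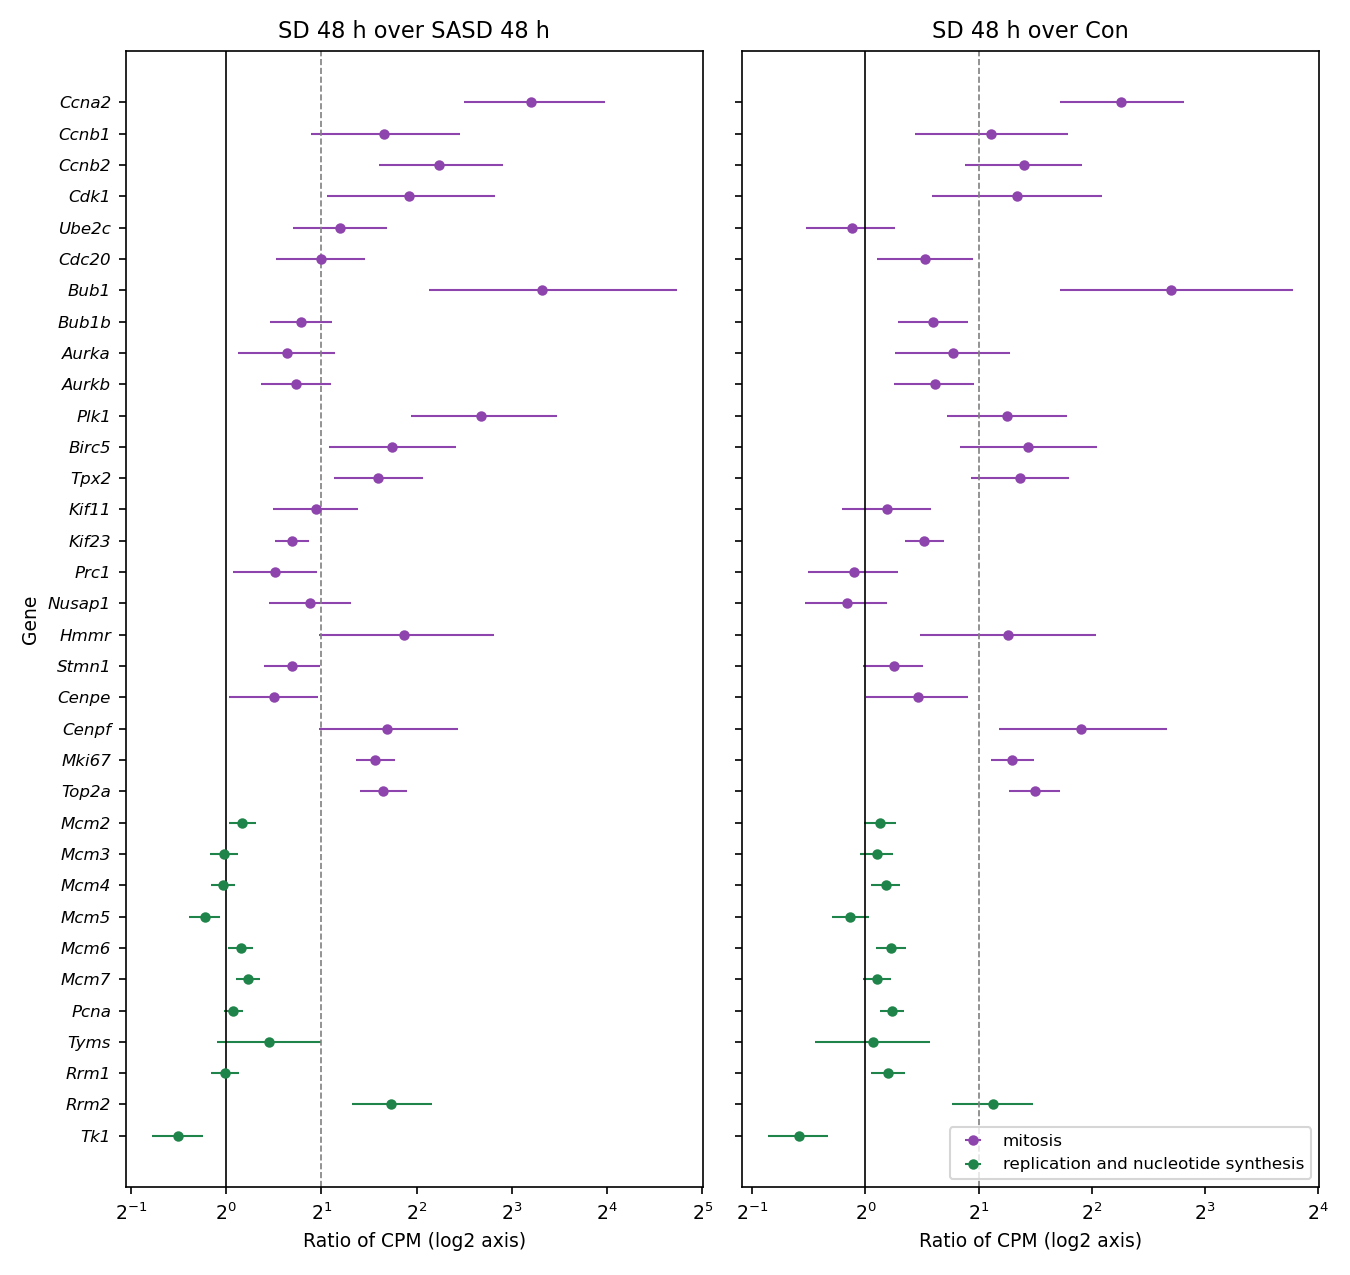
Ratio of CPM at SD 48 h to SASD 48 h and to Con for each gene (log axis), with exact 95% intervals for counting error. The mitosis genes lie to the right of 1 against SASD 48 h, from 1.42 upward, while the MCM genes and Pcna lie between 0.856 and 1.17.

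The replicative helicase and clamp genes varied little over the libraries, with the widest span for Pcna, from 50.9 to 81.3 CPM. Before 48 h, intervals of some ratios of SD to SASD excluded 1. At 24 h these were 1.3 (1.14 to 1.49) for Pcna and 0.72 (0.602 to 0.861) for Mcm5. Pcna, the sliding clamp, was at 69 CPM in Con, 65.6, 75.8, 66.2 and 81.3 CPM under SD and 58.9, 65.7, 50.9, 77.1 and 81.1 CPM under SASD. Mcm7, a subunit of the helicase ring, was at 52.6 CPM in Con, 50.1, 47.3, 46.5 and 56.5 CPM under SD and 44.4, 59.2, 41.3, 48.3 and 53.4 CPM under SASD. SASD 12 h was its highest library and SASD 24 h its lowest. Mcm4, another subunit, was at 46.9 CPM in Con, 48.9, 52, 46.1 and 53.1 CPM under SD and 46.9, 50.7, 48.9, 54.3 and 47.5 CPM under SASD. The ratio of SD 48 h to SASD 48 h was between 0.856 and 1.17 for all 7 genes of the group. SD 48 h was the highest library for Mcm2, Mcm6 and Pcna by a small margin: 81.3 CPM against 81.1 at SASD 120 h for Pcna. Mcm3 ran from 33.3 to 38.6 CPM over all 10 libraries.

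In nucleotide synthesis, the 2 subunits of ribonucleotide reductase differed. Rrm2, the subunit made in S phase, was at 4.11 CPM in Con, 5.23, 4.61, 4.68 and 8.96 CPM under SD and 5.46, 4.99, 4.18, 2.69 and 3.43 CPM under SASD. It stood 3.33-fold (2.49 to 4.47) over SASD 48 h and 2.18-fold (1.7 to 2.8) over Con, and SD 48 h was its highest library. Rrm1, the large subunit, was at 33.7 CPM in Con, 33, 28.2, 25.8 and 38.7 CPM under SD and 25.7, 33.2, 34.4, 39 and 33.4 CPM under SASD. Its ratio of SD 48 h to SASD 48 h was 0.991 (0.894 to 1.1), an interval that includes 1. Tk1, thymidine kinase 1, went the other way, at 15.9 CPM in Con, 10.6, 8.82, 11.2 and 10.6 CPM under SD and 10.8, 8.68, 8.2, 15 and 12.7 CPM under SASD. It was highest in Con and SASD 48 h, and SD 48 h was 0.704 (0.583 to 0.848) of SASD 48 h and 0.665 (0.552 to 0.797) of Con. Tyms, thymidylate synthase, was between 1.22 and 4.56 CPM, highest at SASD 12 h, with a ratio of SD 48 h to SASD 48 h of 1.37 (0.933 to 1.99).

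The 2 classes were apart at 48 h. On the log2 scale with 2 added counts, the median ratio of SD 48 h to SASD 48 h was 1.33 for the 22 mitosis genes and 0.08 for the 11 replication genes, and all 22 mitosis genes were above 0. Of the 33 genes, 13 were at least 2-fold higher and 0 at least 2-fold lower, against 4.4% and 2.93% of all genes, and the median was 0.77 against -0.01 for all genes. Between SD 48 h and Con the medians were 0.89 for mitosis genes and 0.13 for replication genes, and 12 of the 33 were at least 2-fold higher and 0 at least 2-fold lower, against 4.16% and 7.07% of all genes. The 2 ratios share the SD 48 h library and are not independent, and the genes were chosen with earlier results known. For SASD 48 h the median over Con was -0.22, with 0 genes at least 2-fold higher and 3 at least 2-fold lower, against 1.34% and 5.45% of all genes. It was -0.44 for the mitosis genes, of which 2 of 22 were above 0, and 0.07 for the replication genes, so SASD 48 h stood under Con for most of the mitosis genes. At the earlier times the median ratio of SD to SASD was 0.05 at 6 h, -0.24 at 12 h and -0.16 at 24 h. The genes at least 2-fold apart then numbered 1 up and 1 down at 6 h, 0 and 2 at 12 h, and 0 and 4 at 24 h, against 0.83% and 3.41%, 4.43% and 1.37%, and 5.72% and 4.97% of all genes.

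Against Con, which is haemoglobin-poor, the other libraries had few members at least 2-fold higher, and these were Ube2c, Nusap1 and Ccna2. They numbered 3 of 33 at SD 6, 12 and 24 h, where 3.65%, 6.39% and 6.58% of all genes were as high, and 3 of 33 at SASD 6, 12 and 24 h, where 6.04%, 4.3% and 8.05% were. At SASD 120 h the 2 were Ube2c and Nusap1, against 2.47% of all genes. Members at least 2-fold lower numbered 1, 3 and 2 at SD 6, 12 and 24 h, against 6.54%, 7.36% and 6.85%. They numbered 1, 0, 4 and 4 at SASD 6, 12, 24 and 120 h, against 5.64%, 7.87%, 9.08% and 7.69%. All 7 ratios share the Con library.

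**Figure D4:**
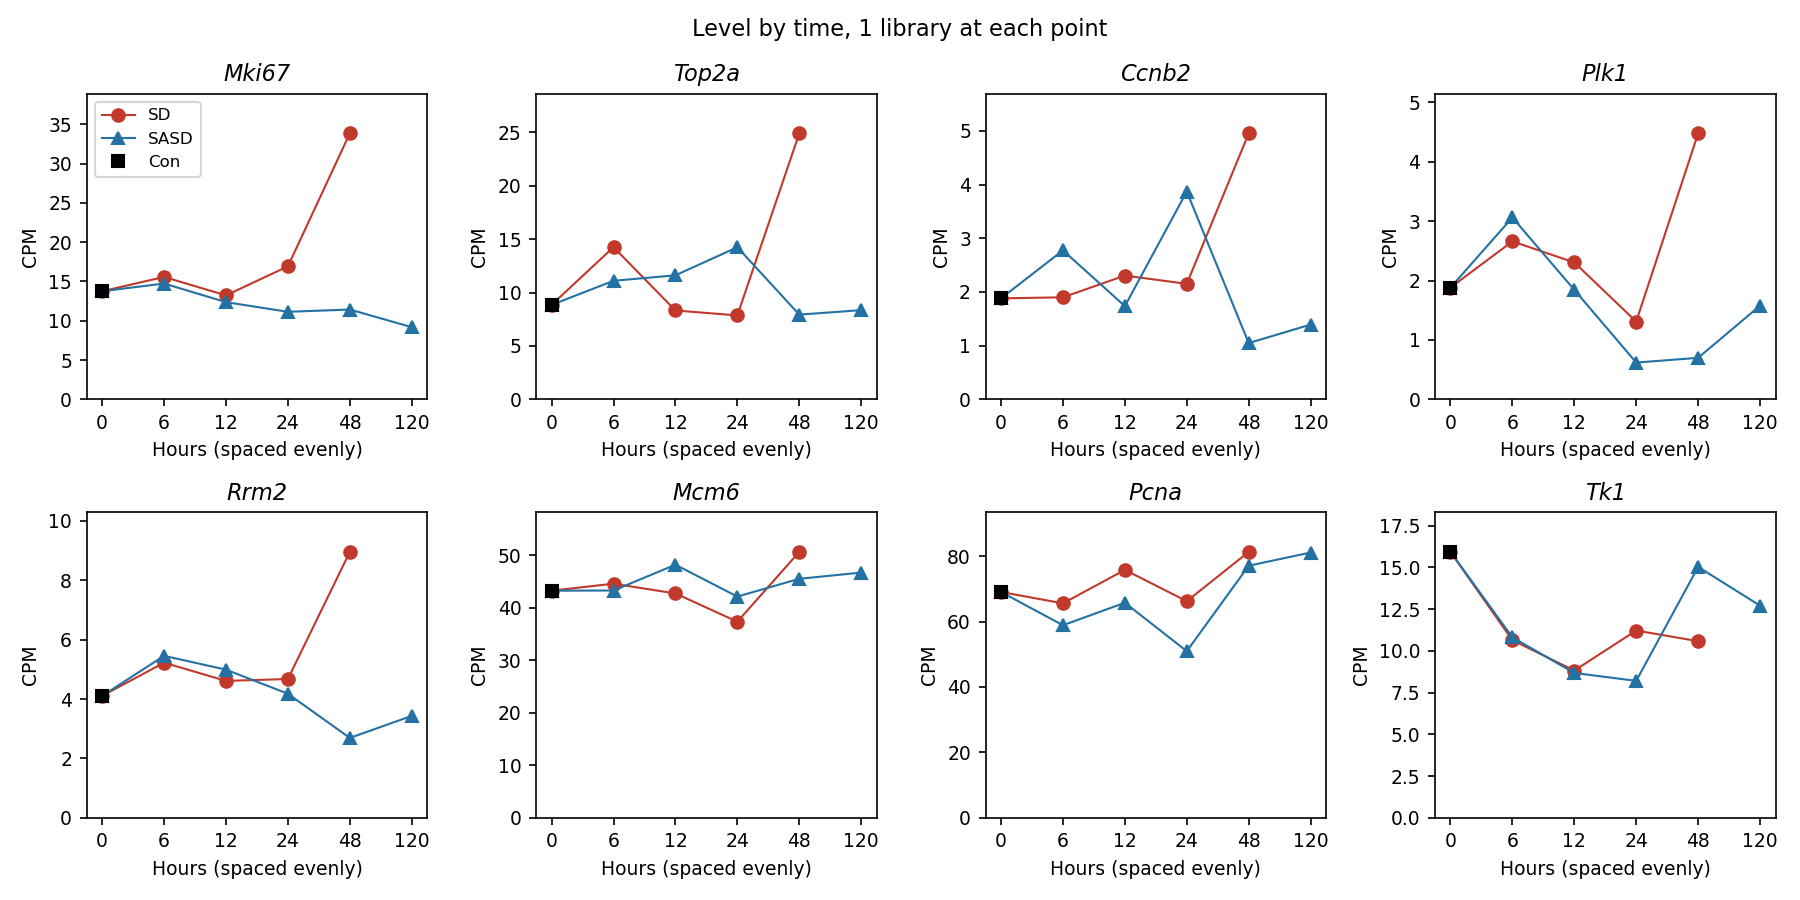
CPM of 8 genes by hours (spaced evenly) for SD and SASD, with Con at 0 h, 1 library per point and no error bar. Mki67 and Top2a are at 33.9 and 24.9 CPM at SD 48 h, Ccnb2, Plk1 and Rrm2 are also highest there, Mcm6 and Pcna are highest there by a small margin, and Tk1 is highest in Con.

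Fits over several libraries called none of the genes. Here edgeR's quasi-likelihood test was used, with Benjamini-Hochberg adjustment over all genes tested and a threshold of 0.05. For a difference between SD and SASD that was steady over the 4 shared times, 0 of 33 genes and 0.0% of all 13370 genes passed. An unadjusted p under 0.05 was found for 2 of the 33 (6.06%), Kif23 and Mki67, and for 1082 of all genes (8.09%). Kif23 was higher under SD by 0.42 ± 0.13 (SE) on the log2 scale, with an adjusted p of 0.444, and was higher at 4 of 4 times. The counting intervals of its ratio at 6 h (0.988 to 1.42) and 24 h (0.876 to 1.29) included 1. For the slope over hours of SD from Con, on log2 of 1 plus hours divided by 6, 0 of 34 genes passed and 0.124% of all genes. Mki67 had a slope of 0.37 ± 0.11 per unit and an adjusted p of 0.339; 4 of the 34 (11.8%) had an unadjusted p under 0.05, against 10.4% of all genes. Over SASD 0 of 33 and 0.0% of all genes passed, with 443 genes (3.03%) and 1 of the 33 (3.03%), Mki67, at an unadjusted p under 0.05. For the difference between the slopes, 0 of 33 and 0.41% passed, and Mki67 had the smallest p of the members, with a difference of 0.37 ± 0.09 with an adjusted p of 0.177. DESeq2 called Mki67 in this fit, with an adjusted p of 0.0252, where it called 1.92% of all genes, and it called 0 of the members in the other 3; limma-voom called 0 in all.

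With a term that lets the haemoglobin-poor libraries differ from the rest, edgeR called Mki67 in the SD slope, at 0.37 ± 0.07 with an adjusted p of 0.0214, where 5.47% of all genes passed. It also called Mki67 in the difference of slopes, at 0.37 ± 0.08 with an adjusted p of 0.0486, where 1.87% passed. Mki67 was between 13.2 and 16.9 CPM in Con and up to SD 24 h, and at 33.9 CPM at SD 48 h, a single library. The members were chosen with earlier results known. These calls of Mki67, and that by DESeq2, therefore cannot serve as a test. The direction of the group rested on SD 48 h. Without that library the median SD slope went from 0.14 to -0.11. Without 48 h the median difference between SD and SASD went from 0.20 to -0.02. The median difference of slopes went from 0.15 to -0.04 without SD 48 h. A further fit, added after the levels were seen, compared the SD to SASD ratio at 48 h with that at 6, 12 and 24 h. It called 0 of 33 genes and 0.0299% of all genes, while 12 of the 33 (36.4%) had an unadjusted p under 0.05, all higher at 48 h, against 8.25% of all genes. The 12 include the haemoglobin followers Ube2c and Nusap1. The fit was chosen after members had been seen to be high at SD 48 h, a single library. The share and direction of these 12 therefore cannot serve as a test. Ccna2 had the largest estimate among these, 3.84 ± 0.56 with an adjusted p of 0.176, and Top2a had 1.93 ± 0.45 with an adjusted p of 0.331.

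Other genes of the cell cycle were read from lists of their pathways. In the list of other mitosis genes, 1 of 55 (1.82%, against 2.26% of all genes) stood at least 2-fold over Con and SASD 48 h at SD 48 h, Nuf2 of the kinetochore, at 0.846 CPM in Con, 0.855, 0.401, 0.0935 and 2.85 CPM under SD and 0.861, 0.542, 0.31, 1.19 and 0.557 CPM under SASD. SD 48 h was nevertheless the highest library for 28 of the 55 (50.9%), against 13.3% of all genes. At least 2-fold over SASD 48 h were 12 of the 55, against 4.4% of all genes, with a median log2 ratio of 0.57. Over Con the median was 0.25, and 4 of the 55 were at least 2-fold higher, against 4.16% of all genes. Of the other DNA replication genes 0 of 51 met the 2-fold rule. SD 48 h was the highest for 13 of them (25.5%, against 13.3% of all genes). Their median ratio to SASD 48 h was 0.02, with Clspn, the checkpoint adaptor claspin, the 1 gene at least 2-fold higher. Among the G1 to S regulators 0 of 28 met it and the median ratio was 0.08; Mybl2, a factor that drives mitosis genes, was the 1 gene at least 2-fold over SASD 48 h. Of the 6 inhibitors with enough counts, 1 met the rule: Cdkn2d, an inhibitor of the cyclin D kinases, was at 45.5 CPM in Con, 58.8, 98, 100.3 and 91.9 CPM under SD and 57.1, 57.9, 50.5, 45.3 and 47.2 CPM under SASD. It was high from SD 12 h on. The fits called 0 genes of these lists.

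**Figure D5:**
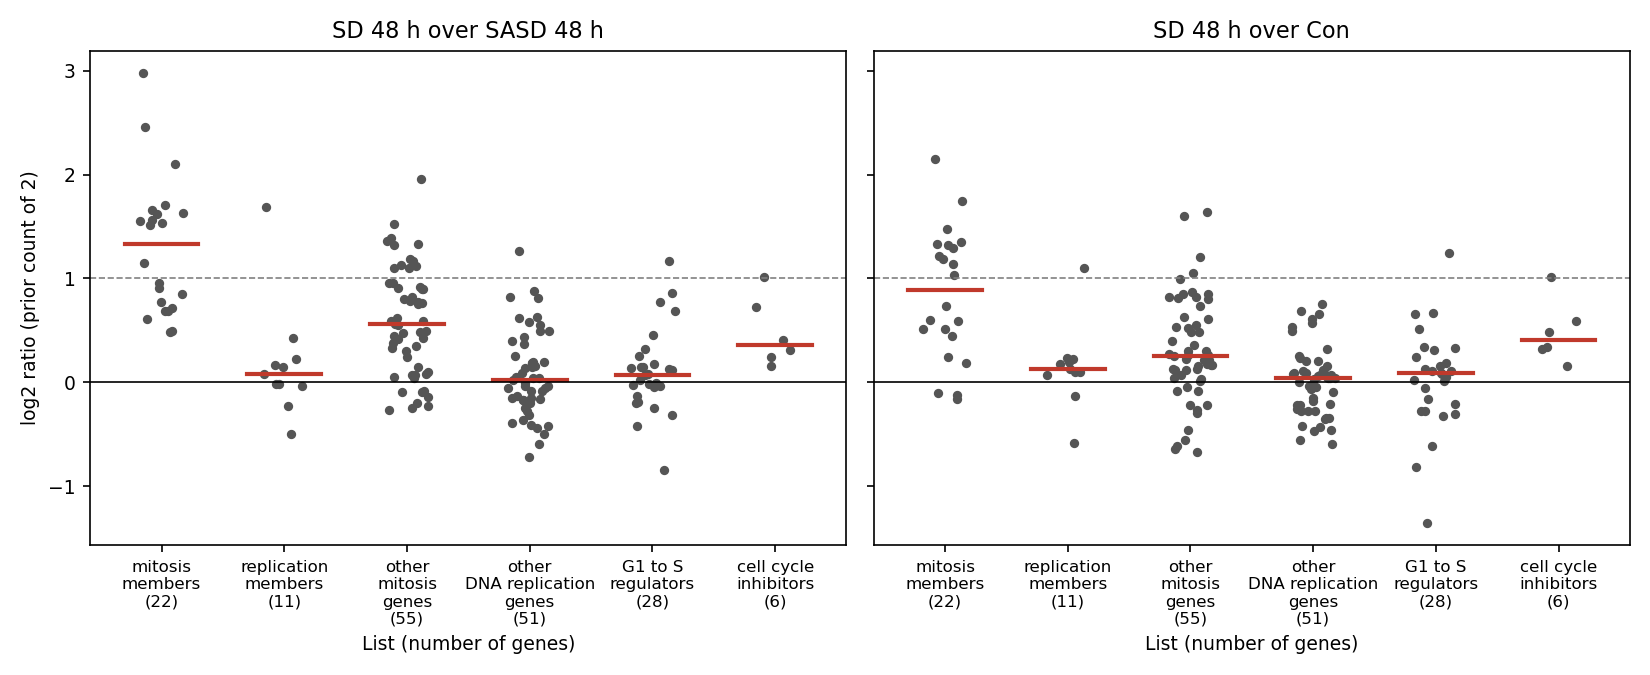
Log2 ratio of SD 48 h to SASD 48 h (left) and to Con (right) for each gene that passes the count minimum, in the 2 classes of members and the other cell cycle lists, with bars at the medians and a dashed line at 2-fold. Against SASD 48 h the median is 1.33 for the mitosis members, 0.57 for the other mitosis genes and 0.02 for the other replication genes.

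Of the other cell cycle genes, a smaller share than the 9.1% of all genes was higher in every haemoglobin-rich library, apart from the G1 to S regulators (10.7%). They were Pttg1, Smc4 and Ube2s of 55 other mitosis genes, Esco2 of 51 other replication genes, and E2f2, Cdc25b and Fzr1 of 28 G1 to S regulators. Esco2, which ties sister chromatids together in S phase, was at 1.1 CPM in Con, 7.41, 5.31, 5.24 and 1.29 CPM under SD and 7.27, 4.67, 13, 0.943 and 3.25 CPM under SASD. E2f2, an E2F factor active in red cell precursors, was at 90.6 CPM in Con, 204, 175, 228 and 112 CPM under SD and 196, 153, 361, 89.7 and 119 CPM under SASD. Esco2 had a wide split like that of Ube2c, and SASD 24 h was the highest library for both Esco2 and E2f2.

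Markers of neutrophils and their precursors were also high at SD 48 h. The 15 markers of neutrophil granules and precursors summed to 2860 CPM at SD 48 h, 1429 CPM at SD 24 h and 203 to 579 CPM in the other 8 libraries. All 13 with enough counts met the 2-fold rule at SD 48 h, as did 2.26% of all genes. Mpo, myeloperoxidase of the first granules to form, was at 0.502 CPM in Con, 0.095, 0.1, 0.655 and 29.9 CPM under SD and 0.191, 0.109, 0, 0.349 and 0 CPM under SASD. Elane, neutrophil elastase, was at 0.408 CPM in Con, 0, 0, 0.0935 and 10.9 CPM under SD and 0, 0, 0, 0.14 and 0 CPM under SASD. Both were at or near 0 outside SD 48 h. The markers of mature neutrophils summed to 11460 CPM at SD 48 h against 2120 to 7806 CPM elsewhere, with 9 of 10 meeting the rule. SD 24 h had the next highest sum of both neutrophil lists. In the granule list Chil3, Lcn2 and Mmp8 were at 671.5, 434.2 and 271.8 CPM there. Mpo, Elane, Ctsg and Ms4a3 were at 0.655, 0.0935, 0 and 0 CPM, and Prtn3 was at 5.8 CPM. Stem and progenitor markers summed to 173 CPM at SD 48 h, inside the range of 141 to 400 CPM of the other libraries. Of these 0 of 8 met the rule and 2 of 8 were at least 2-fold over SASD 48 h, against 4.4% of all genes. Kit, the receptor of stem cell factor, was at 5.83 CPM in Con, 3.33, 3.31, 5.05 and 10.2 CPM under SD and 2.68, 2.93, 3.25, 3.35 and 3.34 CPM under SASD. Cd34 was at 1.91 CPM in Con, 0.76, 0.802, 1.31 and 2.24 CPM under SD and 1.34, 0.542, 1.39, 0.734 and 0.835 CPM under SASD. Both were highest at SD 48 h, with Con next. Flt3 was at 22.3 CPM at SD 48 h and 23 at SD 24 h, against 15.3 CPM in Con and 12.4 at SASD 48 h. Other genes of the list were lower at SD 48 h than in Con. Myb and Sox4 were lowest at SD 48 h, at 9.3 and 22.7 CPM against 14.9 and 33.8 CPM in Con. Gata2 was at 18.45 CPM at SD 48 h against 22.4 CPM in Con, and Slamf1 at 83.65 against 97.8 CPM. Both were lowest at SASD 48 h, at 14.1 and 63.8 CPM. Mycn was at 0 at SD 48 h and in most other libraries. Plasma cell markers summed to 567 CPM at SD 48 h within 542 to 653 CPM, with Tnfrsf17 at 0, and B cell markers were lowest there, at 4107 CPM against 4500 to 6536 CPM. T cell markers were at 1969 CPM within 1160 to 2093 CPM, NK and cytotoxic markers at 507 CPM within 368 to 510 CPM, monocyte markers at 2282 CPM within 1309 to 2563 CPM, and platelet markers at 3428 CPM within 1765 to 11360 CPM. Of these lists 1 of 9 monocyte markers and 0 of the others met the rule. The part of neutrophil precursors in the level of the mitosis genes at SD 48 h was not tested.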

How the data were processed

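RNA of blood leukocytes was sequenced in 10 libraries, 1 per group, each from pooled RNA of 3 mice. The submitters' processing notes name Trimmomatic 0.39, STAR 2.7.9a and the build mm10. Per the file headers, the deposited values are raw counts of read pairs over exons per gene from featureCounts 2.0.3, with no option set for strand, overlaps or multiple mapping. Of 32285 genes, 32235 had a symbol in the tables used here. Without the overlap option, read pairs in exons shared by several genes go uncounted; by GENCODE M21 shared exons make up 22.8% of the exon bases of Ube2c (shared with Tnnc2), 12.5% of Ccna2 (Exosc9), 11.1% of Prc1 (Rccd1), 8.7% of Mcm7, 4.24% of Nusap1, 2.84% of Cdc20 and 1.6% of Tk1; antisense reads cannot be told apart.

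TMM factors and quasi-likelihood tests came from edgeR 4.0.16 (R 4.3.3), on genes averaging 10 counts or more in the fit; DESeq2 1.42.0 and limma 3.58.1 were alternatives. With 1 library per group, p-values reflect only how these pooled samples vary, which may in part be technical. Log2 ratios of single libraries used 2 added counts. Values in every library are given for Ube2c, Nusap1, genes that met a rule on the 48 h libraries or on haemoglobin, and the 2 genes of each role with the highest mean CPM. Likeness was the root mean square difference of centred log2 CPM over 10 libraries. The genes, lists and tests were chosen with earlier results of these data known.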

Additional observations from a re-analysis of the deposited data

How the results depend on the processing

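Scaled by total counts without haemoglobin, the 12 genes at least 2-fold higher at SD 48 h became 10, and the 20 highest there stayed 20. The 12 became 2, and the 20 became 5, when a mean count of at least 100 was required. Of the mitosis genes only Ube2c, Nusap1, Kif23, Stmn1, Mki67 and Top2a have that many counts. The replication genes Mcm2 to Mcm7, Pcna, Rrm1 and Tk1 make up most of the set left. The median log2 ratio of that set was 0.17 for SD 48 h over SASD 48 h, 0.18 for SD 48 h over Con and -0.083 for SASD 48 h over Con. It was -0.11 for SD over SASD at 12 h, -0.045 for SD 12 h over Con and 0.0175 for SASD 120 h over Con. Scaling by total counts without haemoglobin moved the median of all genes by up to -0.39 and that of the members to 0.65 (SD 48 h over SASD 48 h), 0.38 (SD 48 h over Con), 0.023 (SD over SASD at 24 h), and, over Con, -0.15, -0.38 and -0.43 at SD 6, 12 and 24 h and -0.29, -0.21 and -0.45 at SASD 6, 12 and 24 h; the members minus all genes stayed at 0.78 and 0.53 for the first 2. The haemoglobin term called 1 gene in the SD slope and 1 in the difference of slopes, where DESeq2 also called 1. The gene was Mki67 each time, and these calls cannot serve as a test either. The added 48 h fit without a count minimum called 7 (Nusap1, Ube2c, Ccna2, Mki67, Ccnb2, Top2a and Rrm2), with 385 of all genes. In that setting 34 members and 27180 genes were tested, and the 385 are 1.42% of these genes. With the count minimum the same fit called 0 of 33 members. The fit was chosen after the levels were seen, so these calls cannot serve as a test. Leaving out each library or time in turn called 0 members in the fits without a haemoglobin term; it was not run with that term. All genes called ran from 0 to 389 for SD against SASD, 0 to 796 for the SD slope, 0 to 1 for the SASD slope and 0 to 272 for the difference. SD and SASD libraries were paired by time as a block in the fit of SD against SASD; no paired analysis over replicates was possible because every group had a single library. Low counts limit Bub1, Cdk1, Hmmr and Cenpf most.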
